A study of Mus musculus with 12 samples.

Results

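The DNAJ genes of subfamilies A, B and C were taken by symbol, as every gene whose symbol in the platform annotation begins with Dnaja, Dnajb or Dnajc followed by a digit. The rule found 38 of the 12393 genes with a probe set of their own on the array, 4 in subfamily A, 12 in subfamily B and 22 in subfamily C, measured by 75 probe sets. RNA was measured in lung and liver of female nude NCR mice, which have no functional thymus, 7 days after an orthotopic injection, with 1 Affymetrix expression array per tissue sample. The tumor-bearing mice carried 4T1 cells, a metastatic line from a mouse mammary carcinoma, and the control mice received PBS orthotopically. The 4 groups of 3 arrays were tumor-bearing lung, control lung, tumor-bearing liver and control liver, from 3 tumor-bearing and 3 control mice. The sample titles call the organs of tumor-bearing mice pre-metastatic, so each comparison asks how an organ differs 7 days after engraftment. A nude mouse is a limited host model in that its T cell compartment is largely missing, and a whole organ was measured in every sample, so that fewer cells of a type and less RNA per cell cannot be told apart.

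J-domain proteins are the co-chaperones of HSP70. Their shared J domain, with its His-Pro-Asp motif, makes HSP70 hydrolyse ATP and so close on a client protein, and other parts of each protein choose the client or the place where HSP70 acts. Subfamily A proteins carry a glycine and phenylalanine rich stretch and a zinc finger beside the J domain, subfamily B proteins carry the stretch without the zinc finger, and subfamily C proteins share only the J domain and do varied work in the endoplasmic reticulum (ER), mitochondria, ribosome, spliceosome and vesicles. Several cytosolic members, Dnaja1, Dnajb1 and Dnaja4 among them, are known as heat shock genes, and several ER members are known as genes of the unfolded protein response.

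All values are log2 expression values made by the authors with GCRMA, which corrects probe background and normalizes across arrays. They range upward from a shared lowest value of 2.044, and 26.7% to 28.5% of the values of an array lay within 0.05 of it. Pearson correlations between arrays of a group, over all probe sets, were 0.989 to 0.996. The lung arrays carried Sftpc, the surfactant gene of alveolar type II cells, at 15.70 to 15.86, and the liver arrays carried Alb, the albumin gene, at 16.05 to 16.20. Among the lung arrays, tumor replicate 1 (14.39) and control replicate 3 (14.65) held far more Alb than the other 4, which read 8.96 to 11.08. The mean of 9 neutrophil markers was 10.00 to 10.51 in tumor-bearing lungs and 5.41 to 6.43 in control lungs, with all 9 higher and none of them at the lowest value on a tumor-bearing lung array, and it was 4.53 to 4.76 in tumor-bearing livers and 3.16 to 4.15 in control livers, with 8 of 9 higher. Within 0.05 of the lowest value lay 1 marker on each tumor-bearing liver array and 2 to 3 on each control liver array. Ltf, Camp and Mmp8 were near it, at 2.10 to 2.45 in tumor-bearing and 2.04 to 2.33 in control livers. S100a8 and S100a9 were not, at 8.81 to 10.42 in tumor-bearing and 2.56 to 8.02 in control livers. The mean of 3 B cell markers was 5.88 to 6.48 in tumor-bearing lungs and 3.51 to 4.23 in control lungs, and that of 4 ciliated airway markers was 4.02 to 4.63 in tumor-bearing lungs and 4.60 to 5.80 in control lungs. The mean of 8 cardiac muscle markers overlapped, at 5.19 to 7.71 in tumor-bearing lungs and 3.94 to 8.71 in control lungs. The part of these cell types in the DNAJ values was not tested.

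Of the 38 genes 31 passed a filter on low values (above 4 on at least 3 of the 6 arrays of a tissue) in lung and in liver. All 31 were above 4 on every lung array, and in liver all but Dnaja4 were above 4 on every array. The other 7 genes were Dnajb3, Dnajb7, Dnajb8 and Dnajc5b, known from testis, and Dnajc17, Dnajc18 and Dnajc27, with values of 2.04 to 4.30 over the 12 arrays. They were not tested.

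In lung 24 of the 31 tested DNAJ genes had a lower mean in tumor-bearing mice than in controls and 7 a higher mean, with a median change of -0.17 on the log2 scale. Over all 7907 genes tested 53.0% had a lower mean and the median change was -0.01. Dnaja4 and Dnajb2 fell at an adjusted p under 0.05 (limma, Benjamini-Hochberg over all genes tested), which is 2 of 31 where 0.114% of all genes tested were called lower, 9 genes in all. No DNAJ gene was called higher in lung, where 0.620% of all genes were, and 7 were lower and 0 higher at an unadjusted p under 0.05 (6.46% and 6.72% of all genes by that rule).

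In liver 23 of the 31 had a lower mean in tumor-bearing mice and 8 a higher mean, with a median change of -0.18, beside -0.07 and 60.2% with a lower mean over all 7712 genes tested. Dnajb2 fell and Dnajc12 rose at a limma adjusted p under 0.05. Over all genes tested in liver 1.23% were called lower and 0.635% higher, 95 and 49 genes, so that 34.0% of the calls were higher. At an unadjusted p under 0.05, 9 members were lower and 3 higher (17.7% and 8.17% of all genes). With a further quantile normalization 51.1% of the calls over all genes were higher and Dnajb2 was no longer called in liver (limma adjusted p = 0.0505).

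**Figure D1:**
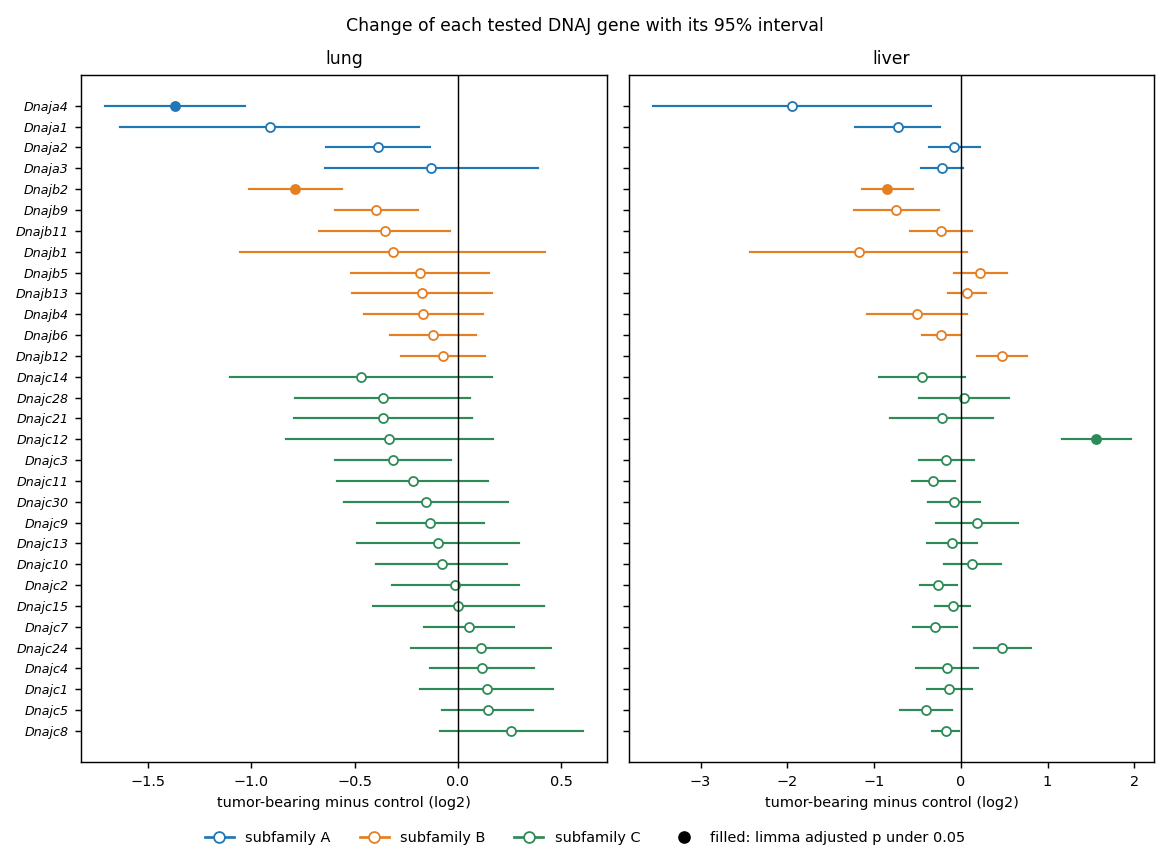
Change of each tested DNAJ gene, tumor-bearing minus control, in lung (left) and liver (right), on the log2 scale with 95% intervals from limma. Colours give the subfamily, and filled points passed the threshold, Dnaja4 and Dnajb2 in lung and Dnajb2 and Dnajc12 in liver. All 4 subfamily A genes lie left of 0 in both tissues.

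The subfamilies differed in their median change. In lung the median was -0.65 for the 4 tested genes of subfamily A, -0.18 for the 9 of subfamily B and -0.09 for the 18 of subfamily C, and in liver it was -0.47, -0.23 and -0.15 in the same order. All 4 genes of subfamily A had lower means in both tissues. In subfamily B 9 of 9 had lower means in lung and 6 of 9 in liver, and in subfamily C 11 of 18 in lung and 13 of 18 in liver. The difference between subfamilies was not tested, since genes are no replicates of a condition. Without tumor replicate 2 the median of subfamily C in lung was 0.01, and without tumor replicate 3 it was -0.18. The median of subfamily A in lung ran from -0.79 to -0.48 when each array was left out in turn.

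Tumor-bearing and control arrays were fully apart for 8 of the 31 genes in lung, all lower in tumor-bearing mice, where 9.57% of all genes tested had every tumor-bearing array below every control array. These were Dnaja1, Dnaja2, Dnaja4, Dnajb2, Dnajb9, Dnajb11, Dnajc3 and Dnajc14. No DNAJ gene had every tumor-bearing lung above every control lung, which 8.99% of all genes did. In liver 11 lay below without overlap (22.7% of all genes tested), namely Dnaja1, Dnaja4, Dnajb2, Dnajb4, Dnajb6, Dnajb9, Dnajc2, Dnajc5, Dnajc7, Dnajc8 and Dnajc11, and 3 lay above (10.4% of all genes tested), namely Dnajb12, Dnajc12 and Dnajc24. Dnaja1, Dnaja4, Dnajb2 and Dnajb9 lay below without overlap in lung and in liver, 4 of 31, where 3.07% of the 7194 genes tested in both tissues did. In liver this held for Dnaja4 only by its brightest probe set. Lung and liver came from the same mice, so these counts are not independent of each other.

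The lowest changes of either tissue lay among the cytosolic folding co-chaperones. Of the 9 tested, 8 had lower means in lung and 8 in liver, with medians of -0.32 and -0.50. Dnajc7 was the exception in lung and Dnajb5 in liver. The 5 tested members placed in no role group had medians of -0.33 in lung and 0.04 in liver.

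Dnajb2, which has ubiquitin-interacting motifs and is known to steer HSP70 clients to the proteasome, was measured by 1 probe set. It read 9.13, 9.30 and 9.20 in tumor-bearing lungs and 10.03, 10.05 and 9.91 in control lungs. The livers read 9.12, 9.35 and 9.24 in tumor-bearing mice and 10.25, 10.10 and 9.90 in controls. Every tumor-bearing array of either organ lay below every control array, and the arrays within a group were close. Dnajb2 was 1.73-fold lower in tumor-bearing than in control lungs (log2 change -0.79 ± 0.09 SE, limma adjusted p = 0.0313) and 1.80-fold lower in tumor-bearing than in control livers (-0.85 ± 0.12 SE, adjusted p = 0.0419). It was the only gene of the 7194 called lower in both tissues (0.0139%), and its change in lung minus that in liver was 0.06 with a 95% interval from -0.28 to 0.40.

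Dnaja4, a subfamily A protein of the cytosol, had the largest fall in lung. It read 9.11, 9.26 and 9.55 in tumor-bearing lungs and 10.77, 10.69 and 10.56 in control lungs, without overlap. The gene was 2.58-fold lower in tumor-bearing lungs (-1.37 ± 0.14 SE, limma adjusted p = 0.019). Its other 2 probe sets had changes of -1.34 and -1.66 in lung, and fitted by probe set 2 of its 3 were called. In liver the gene read 3.85, 5.63 and 6.42 in tumor-bearing mice and 7.37, 7.36 and 7.03 in controls. The liver arrays did not overlap, but the tumor-bearing livers spread widely (SD 1.31, against 0.19 in controls), and the change of -1.95 ± 0.65 SE missed the threshold (limma adjusted p = 0.138). The other probe sets of Dnaja4 had smaller changes in liver, -0.43 and -0.78, with overlapping groups.

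The calls rested on few arrays. Leaving out any 1 of the 6 lung arrays ended the call of Dnajb2 (limma adjusted p of 0.0877 to 0.141), and that of Dnaja4 remained only without tumor replicate 3 (0.0474, and 0.0804 to 0.130 otherwise). Without both lung arrays with more hepatocyte transcripts the changes were -1.33 for Dnaja4 and -0.79 for Dnajb2, with adjusted p of 0.275 and 0.326. In liver, leaving out any 1 array ended both calls, with adjusted p of 0.0606 to 0.145 for Dnajb2 and 0.0571 to 0.129 for Dnajc12.

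**Figure D2:**
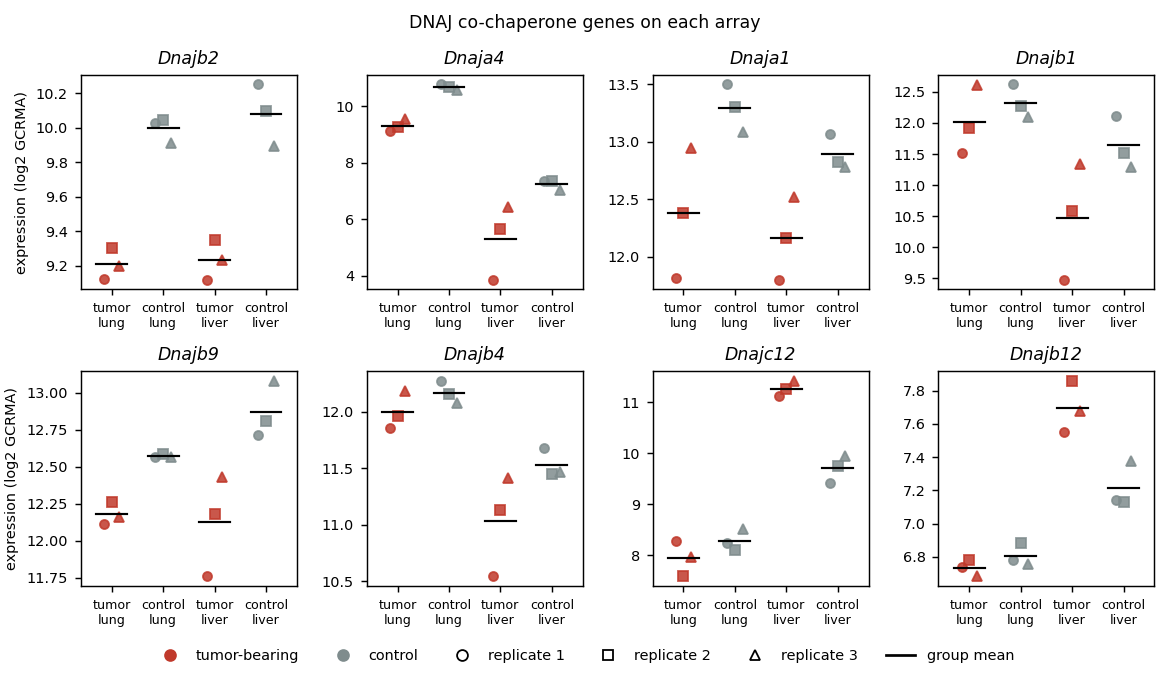
Log2 GCRMA value of 8 DNAJ genes on each array, tumor-bearing (red) and control (grey), lung then liver, with the replicate number as the marker shape and the group mean as a line. The axes do not start at 0 and differ between genes. Dnajb2 lies at 9.12 to 9.35 on the 6 tumor-bearing arrays and at 9.90 to 10.25 on the 6 control arrays, whereas the brightest probe set of Dnajb1, the one plotted, overlaps in both organs.

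Dnaja1, the constitutive and heat-inducible partner of Hspa8, read 11.81, 12.38 and 12.95 in tumor-bearing lungs and 13.50, 13.30 and 13.08 in control lungs. Liver values were 11.80, 12.17 and 12.52 in tumor-bearing mice and 13.07, 12.82 and 12.78 in controls. Its groups did not overlap in either organ, yet the changes of -0.91 ± 0.30 SE in lung and -0.73 ± 0.20 SE in liver missed the threshold (limma adjusted p = 0.277 and 0.102). Dnaja2, a constitutive cytosolic member, read 10.15, 10.36 and 10.27 in tumor-bearing lungs and 10.53, 10.75 and 10.66 in control lungs, a change of -0.39 ± 0.10 SE (adjusted p = 0.196). In liver it had a change of -0.07 with overlapping groups, while its other probe set read 8.67, 8.94 and 9.10 in tumor-bearing livers and 9.33, 9.35 and 9.24 in control livers, a change of -0.40 without overlap (adjusted p over all probe sets 0.129).

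Dnajb1, the heat-inducible co-chaperone often called HSP40, overlapped between the groups in both organs by its brightest probe set. That probe set read 11.51, 11.92 and 12.61 in tumor-bearing lungs and 12.62, 12.28 and 12.09 in control lungs. In liver it read 9.47, 10.59 and 11.34 in tumor-bearing mice and 12.12, 11.52 and 11.30 in controls. Its changes were -0.32 ± 0.30 SE and -1.18 ± 0.50 SE (limma adjusted p = 0.709 and 0.21). Its other probe set did not overlap in lung, with 10.19, 10.70 and 10.69 in tumor-bearing mice and 11.51, 11.42 and 11.13 in controls, a change of -0.83 (adjusted p over all probe sets 0.174). In liver that probe set overlapped, with a change of -0.79.

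The tumor-bearing mice differed among themselves in these genes. Tumor replicate 1 was the lowest of the 3 tumor-bearing arrays for 8 of the 9 cytosolic genes in lung and for 7 of 9 in liver, against 32.9% and 46.5% of all genes tested. The median deviation of the 9 genes from their mean over a tissue was -0.30, -0.12 and 0.02 on the tumor-bearing lung arrays and 0.19, 0.10 and 0.16 on the control lung arrays, and -0.54, -0.15 and -0.01 on the tumor-bearing liver arrays and 0.40, 0.17 and 0.24 on the control liver arrays. Lung tumor replicate 1 is also an array with more hepatocyte transcripts, whose part in these values was not tested.

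The remaining cytosolic members had small changes in lung. Dnajb4, a close relative of Dnajb1, had changes of -0.17 in lung and -0.50 in liver, Dnajb6 of -0.12 and -0.23, Dnajb5 of -0.18 and 0.22, and Dnajc7, which holds its clients through tetratricopeptide repeats, of 0.05 and -0.30. Dnajb6 is known for keeping polyglutamine proteins from aggregating. None of these 4 was called (lowest adjusted p = 0.147). A dimmer probe set of Dnajb6 read 6.17, 7.22 and 7.53 in tumor-bearing livers and 7.99, 8.11 and 7.91 in control livers, a change of -1.03 without overlap (adjusted p over all probe sets 0.153), against -0.10 in lung.

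**Figure D3:**
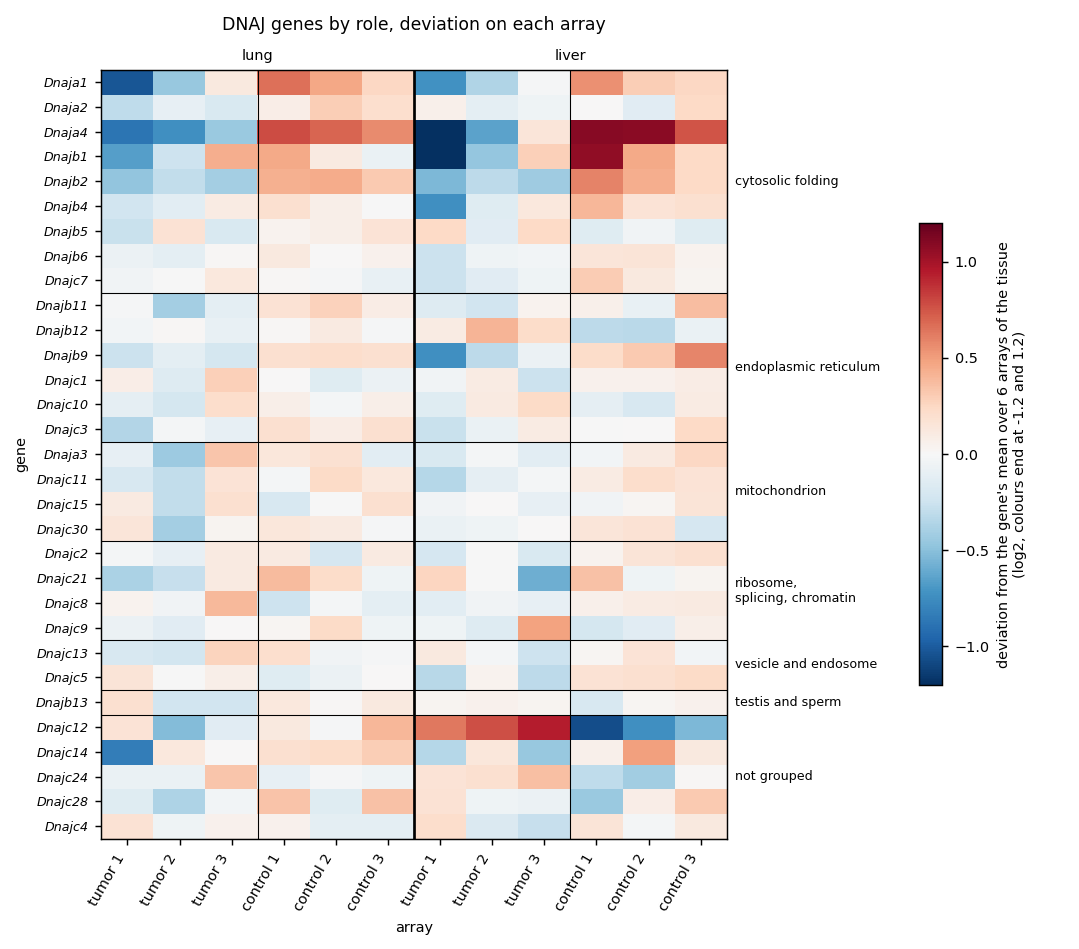
Deviation of each tested DNAJ gene from its mean over the 6 arrays of a tissue (log2, colours end at -1.2 and 1.2), with genes in rows by role and arrays in columns, tumor-bearing left of control within lung and within liver. Blue cells gather in the cytosolic rows of the tumor-bearing arrays, most in tumor replicate 1, and Dnajc12 is red on the 3 tumor-bearing liver arrays.

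Heat shock genes are known to be driven through heat shock elements, arrays of inverted GAA units, so the promoters of the members were searched for them in the RefSeq table (GRCm38.p6), from 250 bases before to 50 after each transcript start, on both strands. Of the 38 genes 31 had at least 1 window, 43 windows in all. The element of 2 units, GAANNTTC, occurred in 4 of these 31 genes (Dnaja1, Dnaja4, Dnajb6 and Dnajc27), against 9.04% of the 27025 genes and 7.86% of the 32851 windows in the table. An element of 3 alternating units, which contains the shorter element, occurred in 1 of the 31, Dnajb6, against 0.662% of genes. The ER stress response element was found in 1 of the 31, Dnajc3, against 0.137% of genes. Of the 4 genes lower without overlap in both organs, Dnaja4 and Dnaja1 are shown for their matches and Dnajb2 as the gene called in both. The window of Dnajb9 held no match and is not printed, nor are the windows of the heat shock gene Dnajb1, which held no match either. Dnajb6 and Dnajc3 are shown because they hold the longer elements. Capitals mark the match, and each stretch runs 5′ to 3′ on the plus strand. That of Dnajb2 is given up to its first listed start, with no match in it or in the window of its second.
Dnaja4, chr9:54699439-54699544: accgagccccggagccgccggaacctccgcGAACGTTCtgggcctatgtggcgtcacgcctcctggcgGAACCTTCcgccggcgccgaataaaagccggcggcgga
Dnaja1, chr4:40722314-40722381: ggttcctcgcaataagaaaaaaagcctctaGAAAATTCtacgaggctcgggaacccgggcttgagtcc
Dnajb6, chr5:29735822-29735894: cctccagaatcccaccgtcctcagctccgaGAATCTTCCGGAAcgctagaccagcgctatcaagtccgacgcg
Dnajc3, chr14:118937797-118937875: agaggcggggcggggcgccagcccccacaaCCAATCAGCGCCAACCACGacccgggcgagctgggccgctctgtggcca
Dnajb2, chr1:75236173-75236422: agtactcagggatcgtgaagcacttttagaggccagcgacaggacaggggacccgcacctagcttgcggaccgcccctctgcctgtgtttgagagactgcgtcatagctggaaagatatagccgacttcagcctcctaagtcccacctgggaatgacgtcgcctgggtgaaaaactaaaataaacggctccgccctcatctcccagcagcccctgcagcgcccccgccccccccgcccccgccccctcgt
The matches of Dnaja4 begin 90 and 52 bases before its second listed start, and that of Dnaja1 begins 124 bases before its first listed start. The windows of the other listed starts of both genes held no match. The element of Dnajb6 begins 46 or 127 bases before its listed starts, and that of Dnajc3 begins 105 bases before its start. A match is a run of letters and was not tested for binding.

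Of the 6 tested ER members 5 had lower means in lung and 4 in liver, with medians of -0.20 and -0.15. None was called, and at an unadjusted p under 0.05 there were 3 of 6 lower in lung (6.46% of all genes tested), and 1 lower and 1 higher in liver (17.7% and 8.17% of all genes tested), and 1 of 6 lower in liver is near the background. Dnajb9 (ERdj4), which recruits the ER chaperone Hspa5 to the stress sensor Ire1, lay below without overlap in both organs. It read 12.12, 12.26 and 12.16 in tumor-bearing lungs and 12.57, 12.59 and 12.57 in control lungs (-0.40 ± 0.08 SE, limma adjusted p = 0.123). In liver it read 11.76, 12.18 and 12.43 in tumor-bearing mice and 12.71, 12.81 and 13.08 in controls (-0.74 ± 0.20 SE, adjusted p = 0.0989).

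Dnajb11 (ERdj3), a co-chaperone that binds unfolded proteins in the ER lumen, read 8.56, 8.16 and 8.45 in tumor-bearing lungs and 8.73, 8.84 and 8.66 in control lungs. Dnajc3 (p58IPK), an ER co-chaperone also known as an inhibitor of the kinase PERK, read 11.90, 12.23 and 12.16 in tumor-bearing lungs and 12.45, 12.34 and 12.44 in control lungs. By the brightest probe set the lung groups of both genes did not overlap, with changes of -0.36 and -0.31 (limma adjusted p = 0.329 and 0.33). Their liver groups overlapped. Other probe sets of Dnajc3 had changes in lung of -0.33, -0.26 and -0.32 with overlap and of -0.43 without overlap. Dnajc10 (ERdj5), a reductase that takes part in ER-associated degradation, had changes of -0.08 in lung and 0.13 in liver. Another of its probe sets read 9.90, 9.80 and 9.77 in tumor-bearing livers and 9.27, 9.21 and 9.47 in control livers. That was a change of 0.50 without overlap (limma adjusted p over all probe sets 0.0589), and its remaining probe set had a change of 0.35 with overlap. In lung these probe sets had changes of -0.10 and -0.21. Dnajc1, an ER membrane protein, had changes of 0.14 and -0.13.

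By the brightest probe set of each gene, Dnajb12, an ER membrane protein of the degradation pathway, was the ER member with higher values in tumor-bearing livers and no overlap. It read 7.55, 7.86 and 7.68 in tumor-bearing livers and 7.14, 7.13 and 7.37 in control livers, a change of 0.48 ± 0.12 SE without overlap (limma adjusted p = 0.0847). Its other probe set had a change of -0.05 in liver. In lung Dnajb12 read 6.68 to 6.78 in tumor-bearing mice and 6.76 to 6.88 in controls.

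The 4 tested mitochondrial members had median changes of -0.14 in lung and -0.16 in liver. Dnaja3, a chaperone of the matrix, read 7.97, 7.63 and 8.39 in tumor-bearing lungs and 8.20, 8.24 and 7.94 in control lungs. In liver it read 10.09, 10.25 and 10.14 in tumor-bearing mice and 10.24, 10.38 and 10.52 in controls. Its changes were -0.13 and -0.22 with overlapping groups. Another probe set of Dnaja3 had changes of -0.72 in lung and 0.09 in liver, also with overlap. Dnajc11, which is found with the cristae-organising complex, had a change of -0.22 in lung and -0.32 in liver, where its groups did not overlap (limma adjusted p = 0.132). Its other probe set had changes of -0.27 in lung and -0.96 in liver, without overlap in either. Dnajc15, tied to the import motor of the inner membrane, had changes of 0.00 and -0.09, and Dnajc30 had changes of -0.16 and -0.08.

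Among the members that work on ribosomes, splicing and chromatin, the spliceosomal Dnajc8 had the highest change of the 31 genes in lung. It read 11.93, 11.86 and 12.28 in tumor-bearing lungs and 11.65, 11.88 and 11.78 in control lungs, a change of 0.26 ± 0.14 SE with overlapping groups (limma adjusted p = 0.515). Its liver values were 9.64, 9.73 and 9.66 in tumor-bearing mice and 9.82, 9.86 and 9.87 in controls, a change of -0.18 ± 0.06 SE without overlap (adjusted p = 0.162). Dnajc2, which acts on the ribosome as part of its associated complex, had a change of -0.01 in lung and -0.26 in liver. Dnajc21, a ribosome biogenesis factor, had changes of -0.36 and -0.22, and Dnajc9, a histone chaperone, of -0.13 and 0.19. None of them was called in either tissue.

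Of the vesicle members, Dnajc5, the cysteine string protein of secretory vesicles, read 9.39, 9.77 and 9.41 in tumor-bearing livers and 9.90, 9.92 and 9.96 in control livers. By this brightest probe set the groups did not overlap (-0.40 ± 0.12 SE, limma adjusted p = 0.114), while in lung the change was 0.14. Of its 5 probe sets, 3 had lower means in tumor-bearing livers and 2 had higher means, by 0.13 and 0.40. The latter read 6.61, 6.91 and 7.17 in tumor-bearing livers and 6.53, 6.42 and 6.53 in control livers, above without overlap. In lung the other probe sets had changes of -0.06, 0.22, -0.20 and -0.32. Dnajc13, an endosomal protein, had a change of -0.10 in both tissues. Dnajb13, known from sperm flagella, read 4.31 to 4.72 in tumor-bearing lungs and 4.55 to 4.66 in control lungs.

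Dnajc14 is known as a membrane co-chaperone of receptor export. By the brightest probe set of each gene, it had the lowest change of subfamily C in both tissues. It read 9.41, 10.37 and 10.25 in tumor-bearing lungs and 10.44, 10.46 and 10.54 in control lungs, without overlap (-0.47 ± 0.26 SE, limma adjusted p = 0.519). Without tumor replicate 1, which read lowest, its change in lung was -0.17. In liver it read 8.90, 9.38 and 8.79 in tumor-bearing mice and 9.31, 9.74 and 9.37 in controls, with overlap (-0.45 ± 0.20 SE, adjusted p = 0.222). The other probe sets of Dnajc14 had changes of -0.29 without overlap and -0.42 with overlap in lung. In liver these had changes of -0.01 and -0.31, both with overlap. A dimmer probe set of Dnajc11 had a lower change in liver, -0.96 without overlap.

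Dnajc12 was the only DNAJ gene called higher in tumor-bearing mice, in liver. Its protein is a co-chaperone of the aromatic amino acid hydroxylases, phenylalanine hydroxylase of the liver among them, and loss of the human gene is known to raise blood phenylalanine. It read 11.11, 11.26 and 11.42 in tumor-bearing livers and 9.42, 9.74 and 9.94 in control livers. Every tumor-bearing liver lay above every control liver, and the gene was 2.95-fold higher (1.56 ± 0.16 SE, limma adjusted p = 0.0323). In lung it read 8.27, 7.59 and 7.97 in tumor-bearing mice and 8.23, 8.09 and 8.51 in controls, overlapping, with a change of -0.33 ± 0.20 SE (adjusted p = 0.562). The mean of 8 hepatocyte markers was 15.71 to 15.75 in tumor-bearing livers and 15.65 to 15.70 in control livers, with 7 of 8 higher, and its part in the rise was not tested.

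The difference between the tissues was tested as the change in lung minus the change in liver, with the 12 arrays taken as independent although both organs came from the same mice. Dnajc12 was the member called, with a difference of -1.89 ± 0.28 SE (limma adjusted p = 0.0139), 1 of 31 where 0.522% of the 8433 genes tested were called lower by this contrast. It remained called with each of the 12 arrays left out in turn (adjusted p of 0.0152 to 0.0377) and without both lung arrays with more hepatocyte transcripts (-1.94, adjusted p = 0.0312). With lung and liver arrays of 1 number taken as 1 mouse, a pairing the labels do not state, the call was lost (adjusted p = 0.0733). Dnajb12 (-0.55, adjusted p = 0.0965) and Dnajc5 (0.54, adjusted p = 0.113) followed and missed the threshold. Both differences rest on the brightest probe set, and each gene has a probe set with the opposite sign in liver. For Dnaja4 the difference was 0.58 with a 95% interval from -0.98 to 2.14, too wide to tell a difference in either direction at this number of arrays.

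Dnajc24, a factor of diphthamide synthesis, also lay above without overlap in liver. It read 7.20, 7.23 and 7.39 in tumor-bearing livers and 6.73, 6.62 and 7.05 in control livers, a change of 0.48 ± 0.13 SE that missed the threshold (limma adjusted p = 0.106). Its other probe set had a change of 0.06 in liver with overlapping groups. In lung Dnajc24 had a change of 0.11 with overlapping groups. Dnajc4 had a change of 0.12 in lung and -0.16 in liver, and Dnajc28 of -0.36 and 0.04, with overlapping groups throughout.

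Most HSP70 partners of the DNAJ proteins had lower means too. Of 12 tested HSP70 and HSP110 genes 11 had lower means in tumor-bearing lungs (median -0.68), and of 11 tested in liver 9 had lower means (median -0.51). Over all genes tested 53.0% had lower means in lung and 60.2% in liver, which is also the background for the lists below. Hspa2, an HSP70 of many tissues that is abundant in testis, was the 1 called. That was 1 of 12 called lower in lung, where 0.114% of all genes tested were. Hspa2 read 7.52, 7.38 and 7.52 in tumor-bearing lungs and 8.22, 8.37 and 8.53 in control lungs, a fall of 1.87-fold without overlap (-0.90 ± 0.11 SE, limma adjusted p = 0.0391), and in liver it had a change of -0.66 (adjusted p = 0.0971).

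Hsph1, an HSP110 that releases ADP from HSP70, had the lowest change of that list in lung, with 9.72, 10.92 and 11.92 in tumor-bearing lungs and 13.04, 12.73 and 12.70 in control lungs. In liver Hsph1 read 9.29, 10.83 and 11.51 in tumor-bearing mice and 12.53, 12.24 and 11.95 in controls. The groups did not overlap in either organ, and the changes of -1.97 ± 0.53 SE and -1.69 ± 0.57 SE missed the threshold (limma adjusted p = 0.204 and 0.142). The inducible Hspa1a and Hspa1b, near-identical genes that probe sets may not tell apart, overlapped between groups in both organs, with changes of -1.05 and -1.01 in lung and -1.48 and -1.03 in liver. The constitutive Hspa8 had changes of -0.35 and -0.51, the ER form Hspa5 of -0.46 and -0.22, and the mitochondrial form Hspa9 of -0.36 and 0.05 (lowest adjusted p of the 3 genes 0.0848).

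Among 9 tested nucleotide exchange factors, which reset HSP70 after a DNAJ protein has closed it, 8 had lower means in tumor-bearing lungs (median -0.16) and 6 in livers (median -0.01). Grpel2, an exchange factor of mitochondrial HSP70, rose in liver as Dnajc12 did. It read 10.58, 10.60 and 10.68 in tumor-bearing livers and 9.81, 9.61 and 9.75 in control livers, 1.86-fold higher without overlap (0.90 ± 0.08 SE, limma adjusted p = 0.0323). That was 1 of 9 called higher in liver, where 0.635% of all genes tested were. In lung Grpel2 read 9.58, 9.70 and 9.38 in tumor-bearing mice and 9.78, 9.89 and 9.77 in controls, and the difference between tissues was called (-1.15 ± 0.14 SE, adjusted p = 0.00576), 1 of 9 where 0.522% of all genes tested were called lower. The related Grpel1 did not rise, with changes of -0.16 in lung and -0.01 in liver (limma adjusted p = 0.661 and 0.964). Bag3, the exchange factor of selective autophagy, had a change of -0.39 in lung and -0.98 in liver (adjusted p = 0.576 and 0.109).

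Of 11 tested HSP90 genes and co-chaperones 10 had lower means in tumor-bearing lungs (median -0.72) and 10 in livers (median -0.36), with 0 called in limma. At an unadjusted p under 0.05, 7 of the 11 were lower in lung, where 6.46% of all genes tested were, and 4 of the 11 in liver, where 17.7% were. Hsp90aa1 had changes of -0.40 and -0.49, and the ubiquitin ligase Stub1, which takes clients from HSP70 and HSP90, of 0.06 and -0.02. Of 13 ER stress genes 12 had lower means in tumor-bearing lungs (median -0.35) and 8 in livers (median -0.05). Manf, a secreted ER stress protein, fell in lung, with 12.13, 12.09 and 12.39 in tumor-bearing lungs and 12.99, 12.97 and 12.98 in control lungs (-0.78 ± 0.11 SE, limma adjusted p = 0.0467), and in liver it overlapped (-0.27 ± 0.27 SE). It was 1 of 13 called lower in lung, where 0.114% of all genes tested were. Of the small heat shock and chaperonin genes 5 of 7 tested had lower means in lung and 5 of 5 in liver, of 3 J-domain genes with other symbols 3 in lung and 1 in liver, and of the heat shock factor list only Hsbp1 was tested, which encodes a protein that binds heat shock factor and is none itself, with changes of -0.12 and 0.07. Hsf2 and Hsf4 did not pass the filter, and Hsf1 was not analysed here.

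Probe sets of a gene mostly shared a direction. In lung 56 of the 75 DNAJ probe sets passed the filter, 45 of them with lower means in tumor-bearing mice, and 3 were called lower where 0.0751% of the 13315 probe sets tested were. They were 2 of Dnaja4 and that of Dnajb2. In liver 57 passed, 40 with lower means and 16 with higher means, and the probe set of Dnajb2 was called lower (0.939% of the 12993 tested) and that of Dnajc12 higher (0.593%). Among genes with several probe sets past the filter, 21 of 25 other probe sets in lung and 19 of 26 in liver had the sign of the probe set used for the gene. A difference of over 0.5 with opposite signs occurred in Dnajb12 and Dnajc5, both in liver. Changes of the same sign that differed by over 0.5 occurred in Dnaja3 (-0.13 and -0.72) and Dnajb1 in lung, and in Dnaja4, Dnajb6 and Dnajc11 (-0.32 and -0.96) in liver. Counts of genes without overlap rest on the brightest probe set of each gene. For 7 of the 25 other probe sets in lung and 10 of the 26 in liver, the overlap of the groups differed from that of the brightest.

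**Figure D4:**
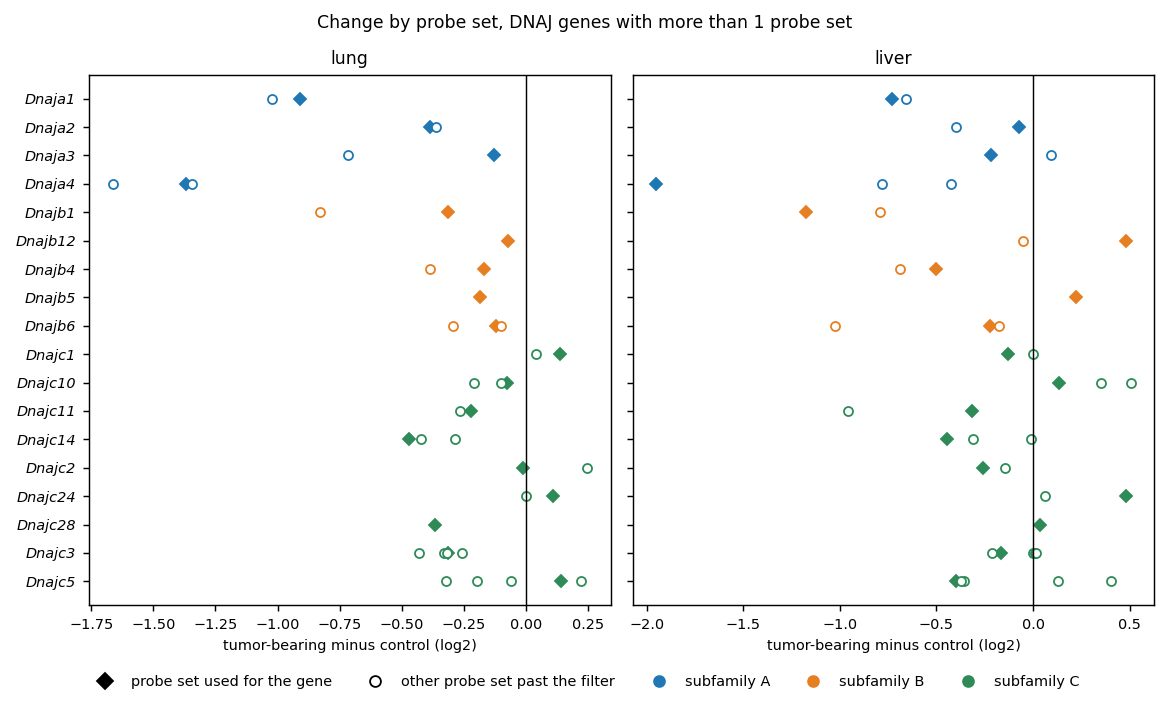
Change by probe set, tumor-bearing minus control (log2), in lung (left) and liver (right), for DNAJ genes with more than 1 probe set. Diamonds are the probe set used for the gene and circles its other probe sets past the filter, coloured by subfamily. The 3 probe sets of Dnaja4 lie between -1.66 and -1.34 in lung and between -1.95 and -0.43 in liver.

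The organs differed in their DNAJ genes without a tumor. Between control lung and control liver 13 of the 31 tested members were called higher in lung and 12 lower, where 45.6% and 35.5% of the 8270 genes tested were, so most genes of any kind differed. The call depended on the scaling, since median centring moved the median difference of all genes from 0.18 to -0.26 and the share of calls that were higher from 56.2% to 41.5%, with 7 members higher and 19 lower, and quantile normalization gave 51.5% with 11 and 11. Under the values as deposited and both scalings 7 members were called higher in lung (Dnaja4, Dnajb5, Dnajc7, Dnajc8, Dnajc9, Dnajc10 and Dnajc14) and 10 lower (Dnaja3, Dnajb11, Dnajb12, Dnajc2, Dnajc4, Dnajc11, Dnajc12, Dnajc15, Dnajc28 and Dnajc30).

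Dnaja4 was the member with the largest difference, 10.68 ± 0.11 in control lung and 7.25 ± 0.19 in control liver (log2, SD, n = 3 each), 10.7-fold higher in lung (limma adjusted p = 1.9e-06). Dnajc8 was 3.77-fold and Dnajc9 3.68-fold higher in lung, with 11.77 ± 0.11 and 10.24 ± 0.15 in control lung and 9.85 ± 0.03 and 8.36 ± 0.15 in control liver. The ER members Dnajc10 and Dnajb11 lay on opposite sides, 2.16-fold higher and 2.08-fold lower in lung.

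All 4 tested mitochondrial members were lower in control lung than in control liver. Dnaja3 averaged 8.13 ± 0.17 in lung and 10.38 ± 0.14 in liver (4.76-fold lower, limma adjusted p = 1e-05), Dnajc15 9.51 ± 0.19 in lung and 11.40 ± 0.10 in liver (3.70-fold), and Dnajc11 6.68 ± 0.13 in lung and 8.48 ± 0.05 in liver (3.47-fold). Dnajc30 was 2.64-fold lower in lung. Dnajc12 averaged 8.28 ± 0.21 in lung and 9.70 ± 0.26 in liver, 2.69-fold lower (adjusted p = 0.000403). Dnajb2 averaged 10.00 ± 0.07 in lung and 10.08 ± 0.18 in liver, with a 95% interval of the log2 difference from -0.36 to 0.19 (limma adjusted p = 0.501). Quantile normalization left that difference uncalled, whereas median centring gave -0.51 and called Dnajb2 lower in lung (adjusted p = 0.00279).

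The other called members had differences from 0.32 for Dnajc5 to 1.01 for Dnajc14 among those higher in lung and from -1.37 for Dnajc28 to -0.29 for Dnajb9 among those lower. Of these Dnaja1, Dnajb13 and Dnajc5 turned to lower in lung under median centring, and Dnajb13 under quantile normalization too. These comparisons share their control arrays with the tumor comparisons above.

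**Figure D5:**
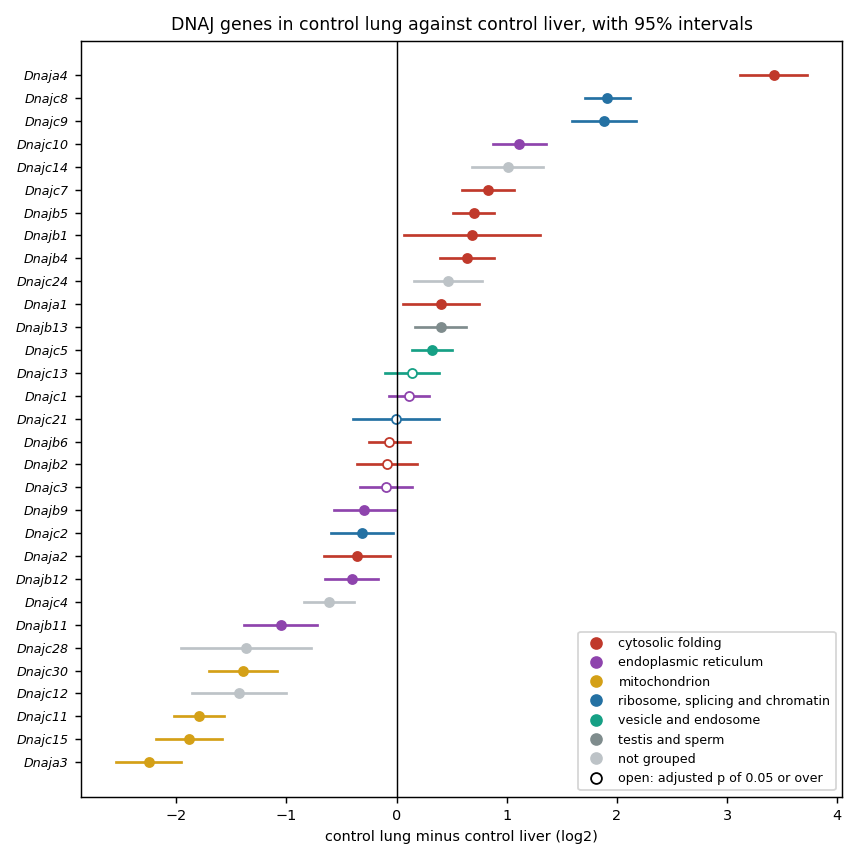
Control lung minus control liver for the 31 tested DNAJ genes (log2, with 95% intervals from limma), ordered by size and coloured by role, open points being those not past the threshold. Dnaja4 lies at 3.43 and the 4 mitochondrial members lie between -2.25 and -1.40.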

How the data were processed

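The members, role groups and partner lists were chosen with earlier results of these data known. The deposited values are log2 expression values per probe set, made by the authors with GCRMA per the submitters' processing notes, which also name limma, without versions or settings. Of 22626 probe sets, 20380 had 1 gene symbol in the platform annotation, 691 several and 1555 none. Each gene took its brightest probe set, by the mean over all 12 arrays. Another 2 probe sets, listed with Dnajc19 and another gene, were left out. Genes with values above 4 on 3 or more fitted arrays were compared with limma 3.58.1 (lmFit, eBayes) in R 4.3.3, with Benjamini-Hochberg adjustment over all genes tested and a threshold of 0.05, within each tissue, between tissues (interaction, 12 arrays) and between control organs. The test was tested on simulated data.

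Named with values were members past the threshold, the 6 largest changes per tissue, the extremes of each subfamily, members whose probe sets disagree by over 0.5 and fixed partners. Other members were given by role, and those whose groups did not overlap were named after their values were seen. Alternatives covered filter, probe sets, scaling, eBayes options, arrays fitted, replicate block and each array left out. Precision is limited by the number of arrays, and no batch is given in the labels.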

Additional observations from a re-analysis of the deposited data

Results flagged for a closer look

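The change of Dnajc12 differed between the tissues. The change in lung minus that in liver was -1.89 on the log2 scale (limma adjusted p = 0.0139), with a change of -0.33 in lung and 1.56 in liver. What sets the tissues apart was not tested.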

How the results depend on the processing

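The main counts of DNAJ genes called were 2 in lung, 2 in liver, 1 for the difference between tissues and 25 between control organs. In lung the count was 0 with no filter (11 of all genes called), 1 with all 12 arrays in 1 fit (Dnajb2, with 231 of all genes called), 0 with the replicate number as a block (1 of all genes), 0 without both lung arrays with more hepatocyte transcripts, and 0 to 1 with each array left out in turn (0 to 14 of all genes, against 58). In liver it was 0 with no filter (62 of all genes), 1 with quantile normalization (94 of all genes), 6 with all 12 arrays in 1 fit (adding Dnaja4, Dnajb9, Dnajb12 and Dnajc5, with 729 of all genes), 0 with the replicate block (0 of all genes) and 0 to 0 with each array left out (0 to 1 of all genes, against 144). The count for the difference ran from 1 to 2 with each array left out, Dnajc5 being added without liver tumor replicate 2, and was 1 with the replicate block. It was 0 with lung and liver arrays of 1 number taken as 1 mouse, chosen after seeing the data (Dnajc12, limma adjusted p = 0.0733, 14 of all genes called). Between control organs it ran from 20 to 26. Some of these settings fitted fewer arrays or tested more genes. The cause of the changes was not tested.

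Replicate numbers were not used as pairs, since the labels tie them to no mouse. Same-numbered tumor-bearing and control arrays correlated at -0.36 to 0.28 in lung and -0.03 to 0.11 in liver. Lung and liver arrays of 1 number correlated at 0.02 to 0.09, each of the 6 lung arrays best with its own number, which is a hint from the data only. The block ended all 4 calls in lung and liver.

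Over all alternatives the limma adjusted p ran from 0.00715 to 0.275 for Dnaja4 and from 0.00403 to 0.326 for Dnajb2 in lung, and from 0.00296 to 0.145 for Dnajb2 and from 0.00265 to 0.129 for Dnajc12 in liver, all keeping their direction. The median of subfamily B was -0.25 in lung and -0.37 in liver with the stricter filter, -0.28 and -0.37 with the mean of all probe sets and -0.29 and -0.37 with every probe set, and -0.24 in lung with quantile normalization. With every probe set that of subfamily A in lung was -0.91. That of subfamily C in liver was -0.10 with the mean of all probe sets or every probe set and -0.063 with quantile normalization. With each array left out the median ran in lung from -0.79 to -0.48 for A, -0.26 to -0.11 for B and -0.18 to 0.0098 for C, and in liver from -0.56 to -0.37 for A, -0.33 to -0.21 for B and -0.15 to -0.064 for C. Between control organs the difference of Dnajb13 was -0.16 with quantile normalization and -0.027 with median centring, which also gave -0.026 for Dnaja1 and -0.11 for Dnajc5.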
